A study of Rattus norvegicus with 5 samples.

Results

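The collagen genes were followed in the parietal cortex of young rats with kaolin-induced hydrocephalus. Members were all non-control probes of the array whose gene name in the scanner files is Col, 1 or 2 digits, the letter a and a number. The rule found 43 probes for 30 genes among the 41012 probes of the array. Of these, 34 probes for 25 genes were bright enough to test (marked by the software as clearly over background for kaolin or saline on 3 or more of the 5 arrays), out of 29122 probes tested in all. The 5 collagen genes that did not pass (Col10a1, Col11a1, Col14a1, Col17a1 and Col8a2) were above background on 0 arrays. The tested genes were 9 fibrillar collagens, 3 basement membrane collagens (type IV chains) and 13 others.

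Injected kaolin, a fine clay, obstructs the outflow of cerebrospinal fluid, and the ventricles of the brain widen. Rats received kaolin or saline on postnatal day 1 and stayed with the dam. Total RNA of parietal cortex was taken 21 days after kaolin, on postnatal day 22. Each of 5 two-colour arrays carried 1 kaolin sample labelled with Cy3 and 1 saline sample labelled with Cy5, so there were 5 samples per group. The dyes were never exchanged, so dye and treatment cannot be told apart for any single probe. Strain, sex and whether a sample came from 1 animal are not given in the labels, and p-values measure the spread between arrays, which may be technical. In bulk tissue, fewer cells of a type and less RNA per cell cannot be told apart. All ratios are log2 of kaolin over saline after background correction and loess normalization, and a gene is represented by its brightest tested probe.

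Collagens are triple-helical proteins of the extracellular matrix. Fibrillar types (I, II, III, V, XI, XXIV and XXVII) form fibres or help start them. In brain they lie mainly in the meninges and around larger vessels, and healthy parenchyma holds little of them. Type IV forms the sheet-like network of basement membranes under endothelium and at the surface of the brain, and the remaining types decorate fibrils, anchor membranes or span the cell surface.

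Between 27968 and 29393 probes were well above background in kaolin samples and between 27386 and 28943 in saline samples, and no spot was saturated. Of the cortical neuron markers, 9 of 10 were tested, and all 9 were above background in both channels on every array. The arrays differed among themselves. Gfap, the intermediate filament of astrocytes, had log2 ratios of 0.39 and 0.60 in replicates 1 and 2 and of 2.81, 2.32 and 2.95 in replicates 3, 4 and 5. Across all tested probes the ratios of replicate 2 correlated below 0 with each other array, from r = -0.37 with replicate 1 to r = -0.06 with replicate 5. Replicate 1 correlated at r = 0.53, 0.48 and 0.12 with replicates 3, 4 and 5, and replicates 3 and 4 correlated at r = 0.83. The labels give the same dyes for all arrays, so every ratio was kept in the labelled direction. Replicates 1 to 4 shared a slide and replicate 5 lay on another.

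To show the regulatory sequence beside the measurements, promoter windows (300 bases around the annotated start) were taken from RefSeq on the GRCr8 build, which held one for 19 of the 25 tested genes. Each was searched on both strands for the letters of 3 promoter motifs. The CCAAT motif was found in 3 of 19 collagen windows and in 37.7% of 27457 windows of all genes. The GC box, GGGCGG, was found in 11 of 19 collagen windows and in 34.9% of all windows. The TATA motif, TATAAA, was found in 1 of 19, Col1a2, and in 14.3% of all windows. The windows below are those of Col1a2, which had the lowest ratio of any collagen on a single array, and of the 3 collagens with an unadjusted p under 0.05. They lie at chr4:33518307-33518606 (+ strand) for Col1a2, chr8:27625899-27626198 (- strand) for Col5a3, chr3:31606630-31606929 (+ strand) for Col5a1 and chr5:81662658-81662957 (+ strand) for Col27a1. Letters run 5′ to 3′ along the gene, and capitals mark matches to the motifs in either orientation.
Col1a2: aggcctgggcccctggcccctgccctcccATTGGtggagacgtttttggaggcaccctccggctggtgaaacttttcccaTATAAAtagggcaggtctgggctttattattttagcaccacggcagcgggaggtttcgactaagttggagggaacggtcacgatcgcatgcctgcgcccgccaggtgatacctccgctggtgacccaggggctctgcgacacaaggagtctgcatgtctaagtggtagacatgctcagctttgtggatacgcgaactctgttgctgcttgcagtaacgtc
Col5a3: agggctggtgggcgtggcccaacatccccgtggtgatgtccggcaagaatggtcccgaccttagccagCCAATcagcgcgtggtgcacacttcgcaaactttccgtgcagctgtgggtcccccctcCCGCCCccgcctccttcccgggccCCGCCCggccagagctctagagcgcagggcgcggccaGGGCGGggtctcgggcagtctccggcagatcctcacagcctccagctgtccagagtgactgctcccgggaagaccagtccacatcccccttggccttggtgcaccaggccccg
Col5a1: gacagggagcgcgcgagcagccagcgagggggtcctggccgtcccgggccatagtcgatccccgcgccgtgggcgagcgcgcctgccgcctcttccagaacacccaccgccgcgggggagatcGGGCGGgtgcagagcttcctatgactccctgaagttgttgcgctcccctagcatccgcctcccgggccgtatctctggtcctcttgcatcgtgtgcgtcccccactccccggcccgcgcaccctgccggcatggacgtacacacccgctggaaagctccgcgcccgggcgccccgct
Col27a1: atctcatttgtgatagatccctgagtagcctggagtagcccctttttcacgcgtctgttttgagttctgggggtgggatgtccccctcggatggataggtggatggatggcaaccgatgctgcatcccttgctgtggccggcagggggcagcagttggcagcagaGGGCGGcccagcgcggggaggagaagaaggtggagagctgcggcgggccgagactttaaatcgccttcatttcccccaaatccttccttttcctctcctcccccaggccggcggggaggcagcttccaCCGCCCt
The TATAAA match of Col1a2 begins at position -170 from the annotated start and its CCAAT match, on the reverse strand, at position -221. Col5a3 held 1 CCAAT match and 3 GC boxes, Col5a1 held 1 GC box, and Col27a1 held 2. A match is a description of these letters, and no match says only that the letters are not in this window.

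No collagen gene passed the test of a difference between kaolin and saline cortex. In limma's moderated test, 0 of 25 collagen genes passed an adjusted p of 0.05 over all tested probes, where 0% of the 29122 tested probes passed. The smallest adjusted p of a collagen was 0.244, for Col5a3 (limma). At an unadjusted p under 0.05, 1 collagen was higher in kaolin (Col5a3) and 2 were lower (Col27a1 and Col5a1), beside 8.82% of all tested probes higher and 9.32% lower. Mean ratios were positive for 17 collagens and negative for 8, and 49.2% of all tested probes had a positive mean. With median centring of each array in place of loess, this split was 8 positive and 17 negative, where 31.6% of all tested probes had a positive mean and the median mean of all tested probes was -0.096. Of the collagens, 11 changed sign with that setting, so the sign of these means depends on the normalization. Col22a1 turned positive and the others turned negative. Without replicate 5 the split was 12 positive and 13 negative, where 49.9% of all tested probes had a positive mean. Of the 34 tested collagen probes, 2 were positive on all 5 arrays and 0 were negative on all 5, beside 6.23% of all tested probes positive throughout and 6.64% negative throughout. These 2 were the dimmer probes of Col23a1 and Col9a3, while the brightest probe of each of the 25 genes had both signs. Kaolin and saline samples overlapped for all 25 collagens. Every kaolin sample lay above every saline sample for 1.45% of all tested probes and below for 1.61%. With 5 arrays, an exact two-sided sign-flip test cannot go below p = 0.0625.

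**Figure D1:**
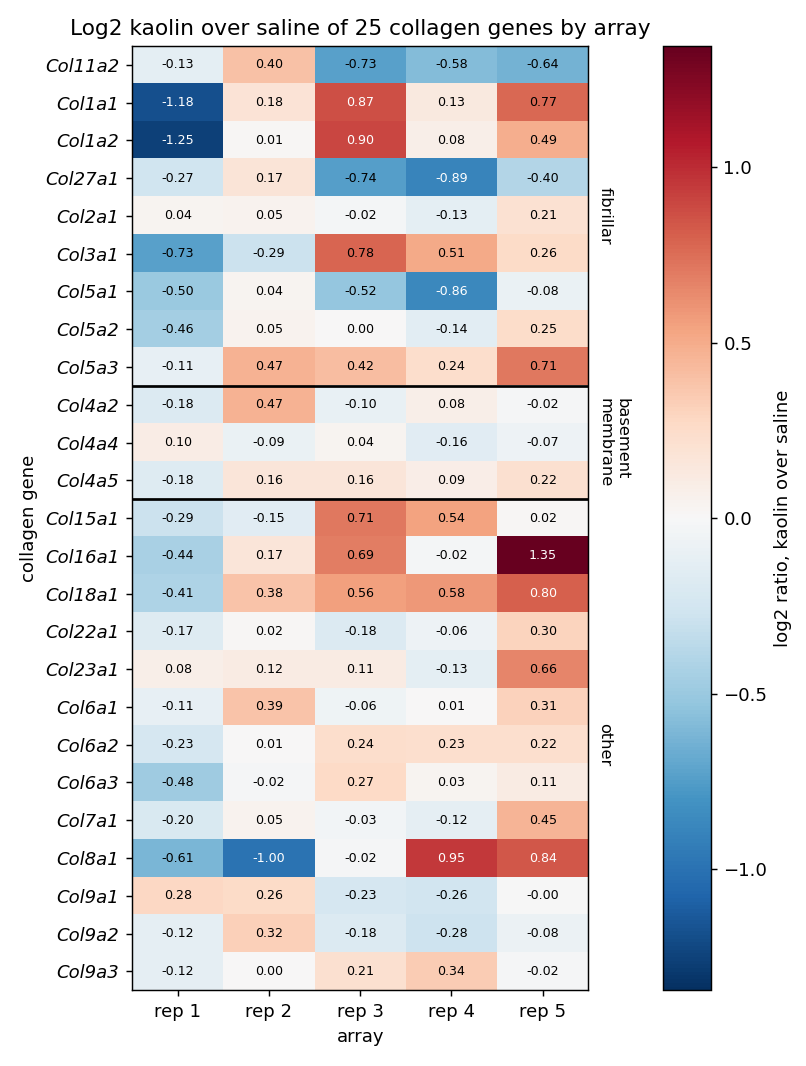
Log2 ratio of kaolin over saline (colour and printed value) for each of the 25 tested collagen genes (rows, by group) on each of the 5 arrays (columns). Most rows are blue in replicate 1, and no row has 1 colour throughout.

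Type I collagen, the main fibre-forming collagen of connective tissue, is built from the chains of Col1a1 and Col1a2. Col1a1 (chr10:83638177-83638236, rn4) had log2 intensities of 11.83, 12.50, 13.42, 13.02 and 13.42 in kaolin replicates 1 to 5, against 13.01, 12.32, 12.55, 12.89 and 12.65 in saline replicates 1 to 5. Kaolin replicate 1 was the lowest of all 10 samples, kaolin replicates 3 and 5 were the highest, and the groups overlapped. The log2 ratios were -1.18, 0.18, 0.87, 0.13 and 0.77, with a mean of 0.15 ± 0.82 (SD, n = 5) and a 95% interval from -0.52 to 0.83 (limma). Col1a2 (chr4:29428206-29428265) had log2 intensities of 11.81, 12.53, 13.63, 13.08 and 13.56 in kaolin samples, against 13.07, 12.51, 12.73, 13.00 and 13.07 in saline samples. Its ratios ran in the same order of arrays at both ends, lowest in replicate 1 and highest in replicate 3, at -1.25, 0.01, 0.90, 0.08 and 0.49. The mean was 0.05 ± 0.81 (SD, n = 5). Without replicate 1 the means were 0.49 for Col1a1 and 0.37 for Col1a2, with adjusted p of 0.287 and 0.349 (limma), and neither passed the threshold under any alternative tried.

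Col3a1, the chain of type III collagen of vessel walls and soft tissue, varied in the same way. Its log2 intensities were 10.19, 10.36, 11.30, 11.21 and 10.92 in kaolin samples, against 10.91, 10.65, 10.52, 10.70 and 10.66 in saline samples (chr9:44317465-44317524). Kaolin samples spread over an SD of 0.50, against 0.14 in saline samples, with 3 kaolin samples above and 2 below all saline samples. The ratios were -0.73, -0.29, 0.78, 0.51 and 0.26, with a mean of 0.11 ± 0.61 (SD, n = 5).

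Type V collagen is incorporated into type I fibrils and governs where they start. Of its chains, Col5a3 had the smallest p of all collagens. It had log2 intensities of 9.80, 10.18, 10.42, 10.38 and 10.69 in kaolin samples, against 9.91, 9.71, 9.998, 10.14 and 9.99 in saline samples (chr8:19789129-19789188). Of the kaolin samples, 4 of 5 lay above all saline samples, and replicate 1 lay among them. The ratios were -0.11, 0.47, 0.42, 0.24 and 0.71, with a mean of 0.34 ± 0.31 (SD, n = 5), which is 1.27-fold (unadjusted p = 0.0236, adjusted p = 0.244, limma). Col5a1 had the opposite sign. Its log2 intensities were 9.12, 9.31, 9.18, 9.02 and 9.67 in kaolin samples, against 9.63, 9.27, 9.70, 9.89 and 9.75 in saline samples (chr3:6970910-6970969). Kaolin samples lay below their saline partner on 4 of 5 arrays, with the exception of replicate 2. The ratios were -0.50, 0.04, -0.52, -0.86 and -0.08, with a mean of -0.39 ± 0.37 (SD, n = 5), or 0.766-fold (unadjusted p = 0.0263, adjusted p = 0.246, limma). A second Col5a1 probe had a mean of -0.14 ± 0.41 with positive ratios in replicates 2 and 5. Col5a2, the partner chain of Col5a1 in the common type V molecule, had ratios of -0.46, 0.05, 0.00, -0.14 and 0.25, with a mean of -0.06 ± 0.26. Its second probe, which starts 80 bases further along, had a mean of 0.03 ± 0.35.

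Among the fibrillar collagens best known from cartilage, Col27a1 and Col11a2 were lower in kaolin samples on 4 of 5 arrays, with replicate 2 as the exception for both, and Col2a1 was near 0. Col27a1, whose product forms thin fibrils, had log2 intensities of 7.70, 7.69, 7.39, 7.29 and 7.73 in kaolin samples, against 7.97, 7.52, 8.13, 8.18 and 8.13 in saline samples (chr5:80313124-80314674). All saline samples but replicate 2 lay above all kaolin samples. The ratios were -0.27, 0.17, -0.74, -0.89 and -0.40, with a mean of -0.42 ± 0.42 (SD, n = 5), or 0.745-fold (unadjusted p = 0.0281, adjusted p = 0.247, limma). Col11a2, a chain of type XI collagen, had ratios of -0.13, 0.40, -0.73, -0.58 and -0.64, with a mean of -0.34 ± 0.47 (unadjusted p = 0.088, adjusted p = 0.321, limma). Col2a1, the chain of type II collagen, averaged 0.03 ± 0.12.

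Col27a1, Col11a2 and Col5a1 came close to the threshold, or passed it, when replicate 2 was left out or arrays were weighted. Replicate 2 was the only array on which these genes had a positive ratio, so leaving it out favours a smaller p. Without replicate 2, the adjusted p was 0.0514 for Col27a1 (mean -0.57), 0.054 for Col11a2 (mean -0.52) and 0.0698 for Col5a1 (mean -0.49). Without replicate 3, it was 0.659 for Col27a1, 0.711 for Col11a2 and 0.659 for Col5a1 (limma). With array weights, which limma set between 0.461 and 2.38, Col27a1 (mean -0.62, adjusted p = 0.0425) and Col5a1 (mean -0.55, adjusted p = 0.044) passed, so 2 of 25 collagens did so, where 11.9% of all tested probes passed. Without replicate 2, 0 of 25 collagens and 5.19% of all tested probes passed. Over the alternatives tried the adjusted p ranged from 0.0425 to 0.659 for Col27a1 and from 0.044 to 0.659 for Col5a1. For Col5a3 it ranged from 0.0729 to 0.659. On the first slide alone, replicates 1 to 4, the means were -0.43 for Col27a1, -0.46 for Col5a1 and 0.25 for Col5a3, with adjusted p of 0.373, 0.366 and 0.386 (limma). The other slide held 1 array and gave no test.

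**Figure D2:**
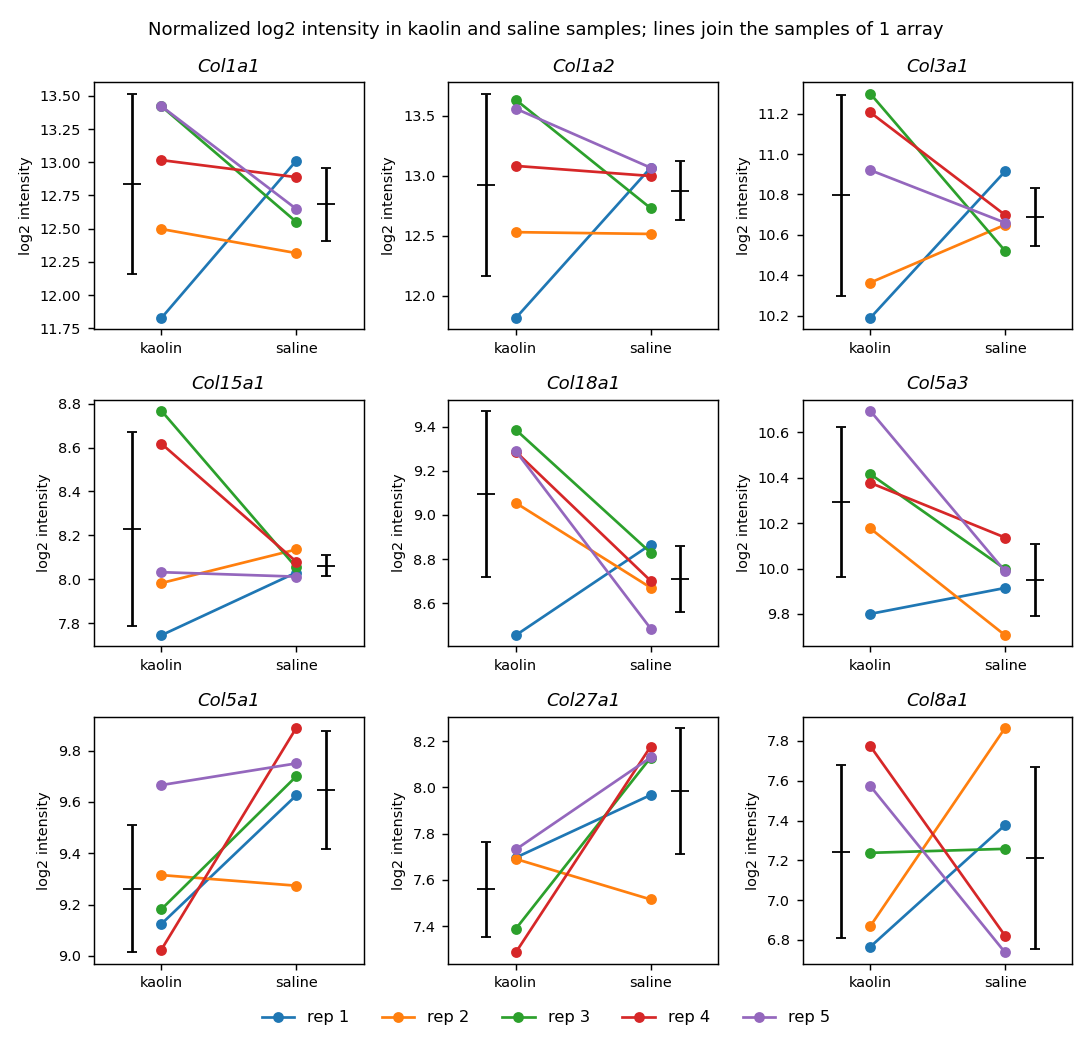
Normalized log2 intensity (vertical axis, a separate scale in each panel) of 9 collagen genes in the 5 kaolin samples (left) and the 5 saline samples (right), with lines joining the samples of 1 array and bars giving mean ± SD. Col1a1, Col1a2, Col3a1 and Col15a1 fan out in kaolin samples, and kaolin replicate 1 is the lowest kaolin sample of each.

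The 3 type IV chains had means between -0.03 and 0.09. Col4a2, a chain of the type IV network found in nearly all basement membranes, had log2 intensities of 8.21, 8.58, 8.26, 8.51 and 8.21 in kaolin samples, against 8.39, 8.11, 8.36, 8.43 and 8.23 in saline samples (chr16:82900301-82900360). Its ratios were -0.18, 0.47, -0.10, 0.08 and -0.02, with a mean of 0.05 ± 0.25 (SD, n = 5). Col4a5, a chain best known from kidney filters and mutated in Alport syndrome, had ratios of -0.18, 0.16, 0.16, 0.09 and 0.22, with a mean of 0.09 ± 0.16. It was positive on 4 of 5 arrays and negative in replicate 1. Col4a4, which assembles with Col4a5 in the same networks, had ratios of 0.10, -0.09, 0.04, -0.16 and -0.07, with a mean of -0.03 ± 0.10. The 95% intervals of the means were -0.20 to 0.30 for Col4a2, -0.10 to 0.28 for Col4a5 and -0.20 to 0.13 for Col4a4 (limma). Type IV genes lie in head-to-head pairs. In GRCr8 the annotated starts of Col4a2 and Col4a1 are 77 bases apart and their promoter windows overlap by 176 bases, while those of Col4a4 and Col4a3 are 413 bases apart with 88 shared bases. Col4a1 was not analysed here.

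Types XV and XVIII are proteoglycan collagens of basement membrane zones. Col18a1, whose product also yields the fragment endostatin, had the largest positive mean of all 25 genes. Its log2 intensities were 8.46, 9.05, 9.39, 9.29 and 9.29 in kaolin samples, against 8.87, 8.67, 8.83, 8.70 and 8.49 in saline samples (chr20:11981417-11981476). All kaolin samples but replicate 1 lay above all saline samples, and kaolin replicate 1 lay below them. The ratios were -0.41, 0.38, 0.56, 0.58 and 0.80, with a mean of 0.38 ± 0.47 (SD, n = 5; 1.30-fold, unadjusted p = 0.0582, adjusted p = 0.285, limma). Without replicate 1 the mean was 0.58. A second probe that overlaps the first gave 0.28 ± 0.42 with the same sign on each array. Col15a1 had log2 intensities of 7.74, 7.98, 8.77, 8.62 and 8.03 in kaolin samples, against 8.03, 8.14, 8.05, 8.08 and 8.01 in saline samples (chr5:63929676-63929735). The saline samples were nearly equal, with an SD of 0.05 against 0.44 in kaolin samples, and the high kaolin samples were replicates 3 and 4. Its ratios were -0.29, -0.15, 0.71, 0.54 and 0.02, with a mean of 0.17 ± 0.44. The mean was 0.28 without replicate 1, 0.03 without replicate 3 and 0.07 without replicate 4.

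Col16a1, a fibril-associated collagen, had ratios of -0.44, 0.17, 0.69, -0.02 and 1.35, with a mean of 0.35 ± 0.69 (SD, n = 5; adjusted p = 0.443, limma). Replicate 5 carried much of that mean, which was 0.10 without it. Col23a1, a transmembrane collagen, had ratios of 0.08, 0.12, 0.11, -0.13 and 0.66, with a mean of 0.17 ± 0.29. It was positive on 4 of 5 arrays, and replicate 5 was again the highest. Without replicate 5 its mean was 0.045.

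Col8a1, a short-chain collagen of vessel walls and of the cornea, had the widest spread of ratios. Its log2 intensities were 6.77, 6.87, 7.24, 7.77 and 7.57 in kaolin samples, against 7.38, 7.86, 7.26, 6.82 and 6.74 in saline samples (chr11:43733411-43733470). The intensities mirrored each other: kaolin was lower on arrays 1 and 2, level on array 3, and higher on arrays 4 and 5. The ratios were -0.61, -0.996, -0.02, 0.95 and 0.84, with a mean of 0.03 ± 0.86 (SD, n = 5).

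Type VI collagen forms beaded filaments close to cells and is built from the chains of Col6a1, Col6a2 and Col6a3. Their means were 0.11 ± 0.22, 0.09 ± 0.20 and -0.02 ± 0.28 (SD, n = 5). All 3 were negative in replicate 1, at -0.11, -0.23 and -0.48. Type IX collagen coats the fibrils of cartilage, and the means of Col9a1, Col9a2 and Col9a3 were 0.01 ± 0.26, -0.07 ± 0.23 and 0.08 ± 0.19. Col7a1, the collagen of anchoring fibrils in skin, averaged 0.03 ± 0.25, and Col22a1, a collagen of tissue junctions, averaged -0.02 ± 0.19. Col22a1 was dim, with 1 kaolin and 3 saline samples above background. The 95% intervals of these 8 means lay between -0.30 and 0.34.

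Most collagen ratios shared a sign on some arrays but not on others. In replicate 1, 21 of 25 collagens had a negative ratio, where 51.2% of all tested probes were negative, and replicate 1 gave the lowest ratio of 15 of 25, where it did so for 21.1% of all tested probes. In replicates 2 and 5, 20 and 17 of 25 were positive, beside 50.4% and 50.5% of all tested probes. Replicates 3 and 4 were close to evenly split, with 14 and 13 of 25 positive, beside 48.8% and 48.7% of all tested probes. These counts per array are given after loess only. With median centring, 32% of the collagens had a positive mean, beside 31.6% of all tested probes. The median ratio of the fibrillar collagens was -0.46, 0.05, 0.00, -0.13 and 0.25 in replicates 1 to 5 (mean -0.06 ± 0.26). That of the basement membrane collagens was -0.18, 0.16, 0.04, 0.08 and -0.02 (mean 0.02 ± 0.13), and that of the others -0.20, 0.05, 0.11, 0.01 and 0.30 (mean 0.05 ± 0.18). All tested probes had a median between -0.01 and 0.00 on each array. No group median lay away from 0 by more than its SD over arrays. On the first slide alone the mean medians were -0.13, 0.03 and -0.01 for the fibrillar, basement membrane and other collagens.

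**Figure D3:**
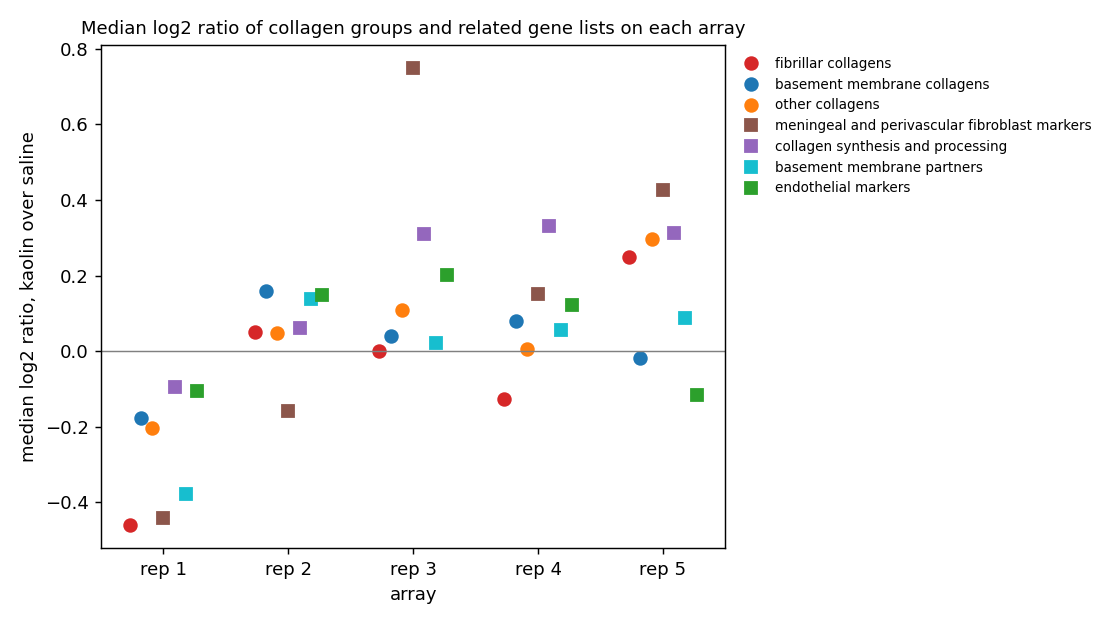
Median log2 ratio of kaolin over saline (vertical axis) on each of the 5 arrays for the 3 collagen groups (circles) and 4 related gene lists (squares). All sets shown but the endothelial markers are lowest in replicate 1. There they range from -0.46 (fibrillar collagens) and -0.44 (fibroblast markers) to -0.09 (collagen synthesis and processing).

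The spread of intensities was larger among kaolin samples than among saline samples for most tested probes, collagens or not. The SD over kaolin samples was larger for 20 of 25 collagens (80%), beside 69.8% of all tested probes. By group this was so for 8 of 9 fibrillar, 1 of 3 basement membrane and 11 of 13 other collagens, with median ratios of the SDs of 1.63, 0.82 and 1.82. It was more than 2 times larger for 9 of 25 (36%), beside 25% of all tested probes. Over all 25 collagens the median ratio of the SDs was 1.57, and over all tested probes it was 1.33. Kaolin samples were all in Cy3, so dye and treatment cannot be told apart in this spread either.

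Separate probes of a gene mostly moved alike from array to array, but not always by the same amount or with the same sign. The 3 probes of Col1a1 lie within chr10:83637903-83638236 (rn4), and their ratios in replicate 1 were -1.18, -0.71 and -0.40. Their means were 0.15, -0.04 and 0.02. For Col1a2 the means were 0.05 and 0.13, and for Col16a1 they were 0.35 and 0.14. The sign also differed on single arrays, for example in Col23a1 and Col9a3. The Col23a1 probes had ratios of -0.13 and 0.11 in replicate 4. The Col9a3 probes had -0.12 and 0.02 in replicate 1 and -0.02 and 0.05 in replicate 5.

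**Figure D4:**
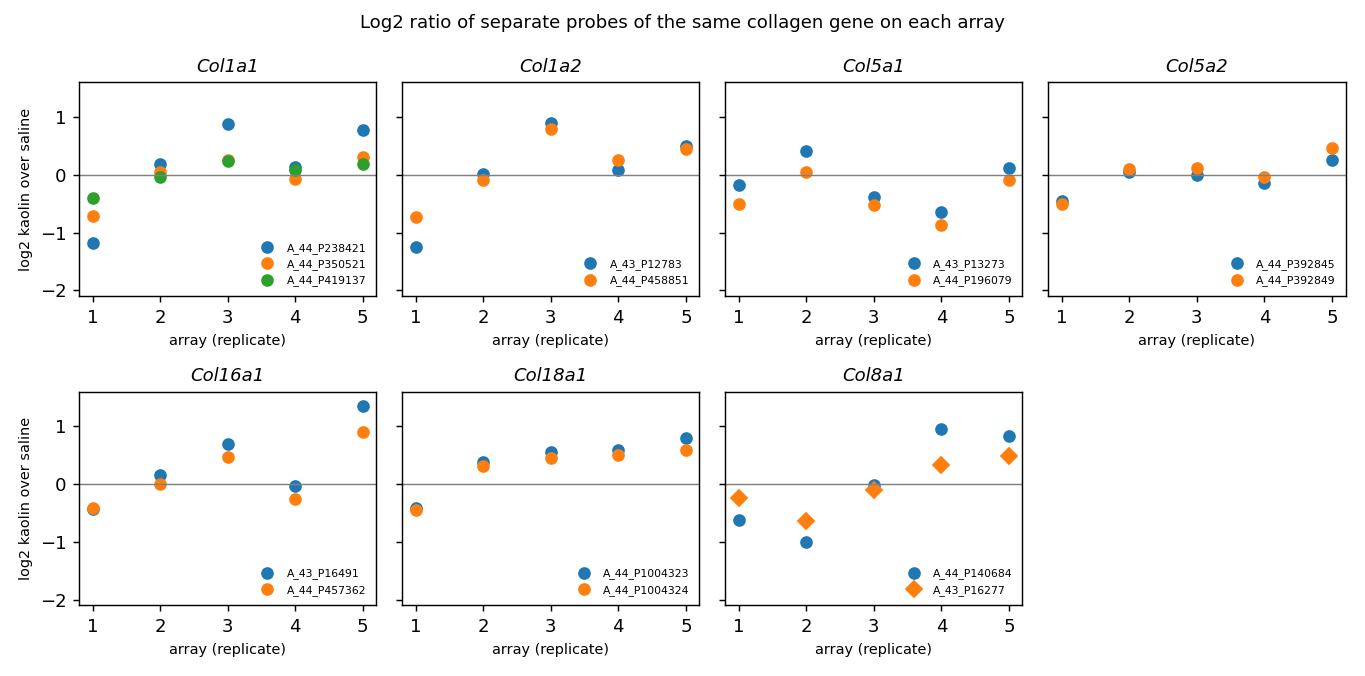
Log2 ratio of kaolin over saline (vertical axis) on each of the 5 arrays (horizontal axis) for separate probes (colours) of 7 collagen genes. The probes of a gene follow one another from array to array, while the Col1a1 probes range from -1.18 to -0.40 in replicate 1. The diamonds beside Col8a1 are a probe named only by a type VIII collagen sequence record.

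Some collagen genes are neighbours in the genome. In rn4 the probes of Col3a1 and Col5a2 on chromosome 9 are 57955 bases apart, and their means were 0.11 ± 0.61 and -0.06 ± 0.26. The probes of Col6a1 and Col6a2 on chromosome 20 are 125814 bases apart, and their means were 0.11 ± 0.22 and 0.09 ± 0.20. In both pairs the means differed by less than their SD over arrays. The probe of Col18a1, also on chromosome 20, is 356295 bases from that of Col6a1 and 482169 bases from that of Col6a2. Its mean of 0.38 ± 0.47 was higher than those of both.

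Before secretion, collagen chains are hydroxylated, glycosylated and folded in the endoplasmic reticulum, and outside the cell they are trimmed and cross-linked. Of 30 genes listed for these steps 24 were tested, with 19 positive and 5 negative means (79.2% positive, beside 49.2% of all tested probes). With median centring 14 of the 24 means were positive (58.3%, beside 31.6%). None passed the adjusted threshold, while at an unadjusted p under 0.05 there were 6 higher in kaolin and 1 lower, beside 8.82% and 9.32% of all tested probes. The median ratio of the list was -0.09, 0.06, 0.31, 0.33 and 0.31 in replicates 1 to 5. Fkbp10, a folding helper of the endoplasmic reticulum, averaged 0.57 ± 0.45 (unadjusted p = 0.0105, limma). P4hb, a subunit of prolyl 4-hydroxylase, averaged 0.44 ± 0.38, and Plod1, a lysyl hydroxylase, 0.40 ± 0.31. P4ha3, a catalytic subunit of prolyl 4-hydroxylase, was negative on all 5 arrays, at -0.26, -0.10, -0.56, -0.59 and -0.89, with a mean of -0.48 ± 0.31 (unadjusted p = 0.00517, adjusted p = 0.243, limma). Serpinh1, the collagen chaperone Hsp47, averaged 0.34 ± 0.40. Lox, which cross-links collagen and elastin, had ratios of -0.42, 0.43, 0.61, 2.71 and 1.18 with a mean of 0.90 ± 1.16, so its spread exceeded its mean. Sparc, a collagen-binding matrix protein, averaged 0.05 ± 0.26, and -0.27 with median centring.

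Of 11 listed collagen receptors 5 were tested, with 4 positive means (2 with median centring) and 0 at an unadjusted p under 0.05. Of all tested probes, 49.2% had a positive mean (31.6% with median centring). At that p (limma), 8.82% of all tested probes were higher in kaolin and 9.32% lower. The integrin chain Itga11 averaged 0.27 ± 0.29, Itga1 -0.21 ± 0.53, the discoidin receptor Ddr1 0.06 ± 0.24 and Adgrg1, a receptor for type III collagen in the developing mouse brain, 0.16 ± 0.15 (-0.01 with median centring). Of 15 laminins, nidogens and other basement membrane partners 13 were tested, with 8 positive means (4 with median centring). Agrn, the heparan sulfate proteoglycan agrin, was the only one at an unadjusted p under 0.05, with a mean of -0.39 ± 0.39 (unadjusted p = 0.031, adjusted p = 0.25, limma). The others named by rank were Lama5 at 0.32 ± 0.52, Lamc1 at 0.17 ± 0.21 and Nid1 at 0.25 ± 0.72. Tgfb1, a cytokine known to induce collagen genes, averaged 0.34 ± 0.26 (unadjusted p = 0.0136, adjusted p = 0.243, limma).

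The fibroblasts of the meninges and of vessel sheaths are a main source of fibrillar collagen in brain tissue, and their markers moved with the arrays as well. Of 20 such markers 17 were tested, with 14 positive means (9 with median centring) and 0 at an unadjusted p under 0.05. Of all tested probes, 49.2% had a positive mean (31.6% with median centring). At that p (limma), 8.82% of all tested probes were higher in kaolin and 9.32% lower. Slc13a4, Foxc1 and Nov were not among the tested genes. Their median ratio was -0.44, -0.16, 0.75, 0.15 and 0.43 in replicates 1 to 5. Their summed intensity ranged from 39218 to 107368 in kaolin samples and from 60183 to 72198 in saline samples. Dcn averaged 0.07 ± 0.48 (-0.09 with median centring), Lum 0.13 ± 0.39, Mgp 0.45 ± 0.55 and Efemp1 0.42 ± 0.72. The part of fibroblast content in the collagen ratios was not tested.

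Markers of other cells that make collagen or border the cortex are given beside these values. For comparison, 49.2% of all tested probes had a positive mean, and 31.6% with median centring. Of 15 endothelial markers 12 were tested, 9 with a positive mean (3 with median centring), and their median ratio was -0.11, 0.15, 0.20, 0.12 and -0.12. Their summed intensity ranged from 25169 to 30870.4 in kaolin samples and from 23958 to 29397 in saline samples. Pecam1 averaged 0.02 ± 0.18 and Cldn5 0.04 ± 0.24 (-0.23 with median centring). Of 12 pericyte and smooth muscle markers 9 were tested, 7 with a positive mean (77.8%) and 2 with median centring (22.2%). Tagln (0.96 ± 0.75) and Des (0.78 ± 0.46) had an unadjusted p under 0.05 (limma), where 8.82% of all tested probes were higher. The summed intensity of this list was 14010.2 to 18299.5 in kaolin samples and 13914 to 15165 in saline samples. Of 12 reactive astrocyte markers 10 were tested, 9 with a positive mean, with medians of -0.02, -0.05, 2.45, 2.02 and 2.48 and a summed intensity of 7418 to 77670.2 in kaolin samples against 7134 to 10392 in saline samples. Of 10 microglia and macrophage markers 9 were tested, all with a positive mean, with medians of -0.11, 0.07, 2.10, 1.30 and 1.57 and a summed intensity of 13482 to 49704 in kaolin samples against 12262 to 14010.1 in saline samples. Of 10 choroid plexus markers 8 were tested, all with a negative mean, and Ttr averaged -2.85 ± 1.80. Their summed intensity ranged from 1379.5 to 4037 in kaolin samples and from 1839 to 57599 in saline samples. The cortical neuron markers had 1 positive and 8 negative means. At an unadjusted p under 0.05 (limma), 8 of 10 astrocyte markers and 8 of 9 microglia and macrophage markers were higher in kaolin. Of the choroid plexus markers, 4 of 8 were lower at that p, and 0 endothelial and 0 neuron markers passed it. Of all tested probes, 8.82% were higher and 9.32% lower. The median of all tested collagens was -0.20 and 0.05 in replicates 1 and 2, where the astrocyte and microglial medians were near 0, and 0.04, 0.01 and 0.22 in replicates 3, 4 and 5, where they were between 1.30 and 2.48. The part of any of these markers in the collagen ratios was not tested.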

How the data were processed

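Agilent Feature Extraction 10.1.1.1 wrote the scanner files, per the file headers. The columns of mean signal and local background hold intensity as scanned, per the file headers, while the processed signal is intensity that the software had already background-subtracted and dye-normalized. A further column holds the log10 ratio (Cy5 on top), and flags per spot are other values of 0 or 1, per the file headers. The deposited matrix holds log2 ratios. Its columns correlated with the log10 ratios at -1.00 to -0.978, so they run as kaolin over saline (medians 0.02, -0.05, -0.02, 0.09 and -0.10), with a normalization not given in the sources used here.

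Here, spots flagged as outliers (86 to 147 per array) were left out, backgrounds were corrected with normexp (offset 50), ratios were normalized by loess (span 0.3, control spots at weight 0) and spots of a probe were averaged. Ratios were fitted in limma 3.58.1 (R 4.3.3, data.table, version 1.17.8) with 1 coefficient, the mean ratio, tested against 0 (two-sided). P-values were adjusted by Benjamini and Hochberg's method over the 29122 tested probes, with 0.05 as threshold. Among all probes over background on enough arrays, 12 lacked a value on 1 or more arrays, none of them a collagen. Intensities per sample were taken after loess and quantile scaling of the average intensity. The number of arrays limits precision. The fit was tested on simulated ratios drawn independently for each array. That check cannot show how the test behaves with the correlations between arrays seen here. Probe positions come from the scanner files (rn4). Gene models of that build were not used, so exons and UTRs are not stated.

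The members and gene lists were chosen with earlier results of these data known, so counts over them are descriptions. Every tested collagen was named. From each other list the rule took the 4 genes with the smallest p plus a fixed panel, and for the marker lists used as checks only some of these are printed. Alternatives were no background subtraction, normexp with offset 0, median centring, processed signals, the deposited matrix, no or a stricter filter, averaging probes, array weights, slide as a random block and leaving out each array.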

Additional observations from a re-analysis of the deposited data

Results flagged for a closer look

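Per-array values of the collagen genes, collagen groups and gene lists were each searched for 1 array far from the other 4, and 3 of 87 were singled out. Chance alone flags about 1 in 20 such sets. None of the 3 was a collagen gene or a collagen group. The median log2 ratio of the collagen receptors was -0.31 in replicate 1, while the other arrays lay between 0.13 and 0.28. The median of the basement membrane partners (laminins, nidogens and agrin) was -0.38 in replicate 1, while the other arrays lay between 0.02 and 0.14. The median of the cortical neuron markers was 0.19 in replicate 2, while the other arrays lay between -0.40 and -0.24.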

How the results depend on the processing

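The count of collagens past the threshold was 0 with limma under each alternative but array weights, which gave 2. Over all tested probes the count was 0, against 22 with median centring and 3472 with array weights, and it ranged from 0 to 1512 when 1 array was left out (1 without replicate 1 and 1512 without replicate 2). Collagens with a positive mean numbered 17, and 8 with median centring, 15 with array weights and from 12 (without replicate 5) to 19 (without replicate 1) when 1 array was left out. Among settings that kept all arrays, 22 of 249 collagen values changed sign, over 13 genes. In the main fit the means of these genes lay between -0.02 (Col22a1) and 0.15 (Col1a1). Without background subtraction these were Col6a3 (0.040) and Col8a1 (-0.054). With median centring they were Col1a1 (-0.092), Col1a2 (-0.21), Col3a1 (-0.082), Col4a2 (-0.071), Col4a5 (-0.017), Col22a1 (0.043), Col6a1 (-0.080), Col7a1 (-0.075), Col8a1 (-0.017), Col9a1 (-0.038) and Col9a3 (-0.073). With processed signals they were Col6a3 (0.015) and Col8a1 (-0.083), with the deposited matrix Col6a3 (0.0058) and Col8a1 (-0.092), with array weights Col2a1 (-0.018), Col6a3 (0.027), Col7a1 (-0.013) and Col9a1 (-0.10), and with slide as a random block Col8a1 (-0.012). Leaving out 1 array turned 16 of 125 values. The ranges of the genes concerned were -0.14 to 0.039 for Col5a2, -0.099 to 0.020 for Col22a1, -0.089 to 0.099 for Col6a3, -0.057 to 0.077 for Col9a1, -0.055 to 0.11 for Col4a2, -0.025 to 0.49 for Col1a1, -0.17 to 0.37 for Col1a2, -0.061 to 0.32 for Col3a1, -0.20 to 0.29 for Col8a1, -0.015 to 0.068 for Col2a1 and -0.077 to 0.087 for Col7a1. The causes were not tested. No array met the condition set for turning its sign, so that alternative gave no value. The fit is itself paired, since each ratio sets the kaolin and saline samples of 1 array against each other. Dim probes such as Col22a1 are limited by signal over background.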

Other observations

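Some probes describe a collagen chain but carry a name outside the rule, and they were looked at after their values were seen. A probe described as similar to the alpha 1 chain of type XXIV collagen, a fibrillar collagen (RGD1565539, chr2:243727511-243727570, rn4), had log2 intensities of 8.25, 8.75, 6.72, 7.16 and 7.70 in kaolin samples, against 9.12, 8.56, 9.14, 9.37 and 9.09 in saline samples. It was lower in kaolin on 4 of 5 arrays, with replicate 2 as the exception. Its ratios were -0.87, 0.19, -2.41, -2.21 and -1.39, with a mean of -1.34 ± 1.06 (SD, n = 5; unadjusted p = 0.00781, adjusted p = 0.243, limma). This mean lies outside the range of all 25 tested collagens, -0.42 to 0.38. Of all tested probes, 9.32% were lower in kaolin at an unadjusted p under 0.05 (limma). Another probe described as type XXIV (XM_214738) was not above background on any array and gives no level.

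A probe named by a type VIII alpha 1 sequence record (S63458, chr11:43733057-43733116) lies close to the Col8a1 probe. It had ratios of -0.23, -0.64, -0.10, 0.33 and 0.49, the sign of Col8a1 on every array, with a mean of -0.03 ± 0.45. A probe described as similar to type IV alpha 6 (LOC363458, X chromosome) had a mean of 0.12 ± 0.13. The remaining tested probes of this kind were described as similar to type VI alpha 3 (0.04 ± 0.07), similar to type IX alpha 2 (-0.08 ± 0.19) and as type V alpha 2 (-0.06 ± 0.25). The type VI probe was dim, with 2 kaolin and 1 saline samples above background.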
